A study of Mus musculus with 6 samples.

Results

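To see whether a response to the stress of handling could differ between mice injected with antisense oligonucleotides (ASOs), glucocorticoid-responsive genes were read in each dorsal hippocampus. The genes were chosen by name, with earlier results of these data known, and the rule used none of their measured values. They comprised 8 targets of the glucocorticoid receptor (Fkbp5, Sgk1, Tsc22d3, Zbtb16, Ddit4, Pdk4, Errfi1 and Sult1a1) and the 2 corticosteroid receptors, Nr3c1 and Nr3c2. They are 10 of the 55401 gene identifiers counted, and all 10 were among the 19969 genes that passed the filter on low counts. Bulk RNA-seq was available for 6 male WT mice of 4 months, littermates of the trisomic Ts65Dn line, killed 3 days after surgery. In the Snhg11-ASO group (n = 3), each hemisphere received 50 µg of a 2′MOE gapmer that targets the lncRNA Snhg11 for degradation, delivered to the dorsal DG. In the Control-ASO group (n = 3), a gapmer with the same nucleotides in scrambled order was given at the same dose. Mice of both groups shared ketamine and medetomidine anaesthesia, stereotaxic surgery and buprenorphine treatment, and no uninjected group was analysed here. The tissue sequenced was the whole dorsal hippocampus and not the injected DG alone.

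Corticosterone, the main glucocorticoid of mice, is released by the adrenal gland in a daily rhythm and after stress. In the hippocampus it binds the mineralocorticoid receptor, encoded by Nr3c2, with high affinity, and the glucocorticoid receptor, encoded by Nr3c1, mainly when hormone levels rise. The hormone-bound receptors move to the nucleus and activate genes near palindromic response elements, among them Fkbp5 and Tsc22d3, which are common readouts of glucocorticoid exposure.

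The promoter windows of the targets were read for the letters of such an element, from 250 bases before to 50 bases after each RefSeq transcription start on GRCm38.p6. Windows were read for 8 of the 10 genes, 16 windows in all, since some genes have several starts. None was read for Zbtb16 or Nr3c1, so whether their promoters hold a match was not tested. The palindrome searched was AGAACA, any 3 bases, then TGTTCT, which reads the same on both strands and contains an AGAACA match on each. It was present in 3 of 32851 windows of all genes (0.00913%), and 1 of these 3 belonged to Sgk1. In that window, chr10:21993640-21993939 on the plus strand, it lay from 189 to 175 bases before the start. The single hexamer AGAACA, on either strand, was present in 19.0% of all windows and in 5 of the 16 windows read here, which belonged to Sgk1, Sult1a1 and Tsc22d3. Shown are that window of Sgk1 and those of Tsc22d3 at chrX:140600473-140600772, Fkbp5 at chr17:28486100-28486399 and Ddit4 at chr10:59951721-59952020, the last 3 on the minus strand. Capitals mark the palindrome in Sgk1 and the hexamer in Tsc22d3, and the windows of Fkbp5 and Ddit4 held neither. For Sgk1 and Tsc22d3, which have several starts, the window was chosen for its match. The palindrome was in no other window of Sgk1, and the hexamer in no other window of Tsc22d3. The windows of Errfi1 and Pdk4, not shown, also held neither.
Sgk1: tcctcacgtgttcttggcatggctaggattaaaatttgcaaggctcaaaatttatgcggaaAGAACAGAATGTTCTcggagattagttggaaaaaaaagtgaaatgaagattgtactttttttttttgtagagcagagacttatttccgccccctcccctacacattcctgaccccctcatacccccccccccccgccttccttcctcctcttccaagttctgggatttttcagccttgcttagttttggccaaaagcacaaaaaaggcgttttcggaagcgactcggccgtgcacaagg
Tsc22d3: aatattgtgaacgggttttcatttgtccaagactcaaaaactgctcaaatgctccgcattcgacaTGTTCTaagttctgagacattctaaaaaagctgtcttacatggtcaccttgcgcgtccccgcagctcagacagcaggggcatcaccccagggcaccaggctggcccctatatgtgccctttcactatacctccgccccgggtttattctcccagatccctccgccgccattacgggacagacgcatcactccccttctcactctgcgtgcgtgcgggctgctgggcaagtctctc
Fkbp5: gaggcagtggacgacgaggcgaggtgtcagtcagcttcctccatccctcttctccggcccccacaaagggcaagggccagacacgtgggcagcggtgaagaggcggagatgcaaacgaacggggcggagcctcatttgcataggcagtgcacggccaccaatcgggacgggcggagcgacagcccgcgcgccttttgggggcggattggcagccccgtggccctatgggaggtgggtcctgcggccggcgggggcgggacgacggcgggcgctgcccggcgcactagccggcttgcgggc
Ddit4: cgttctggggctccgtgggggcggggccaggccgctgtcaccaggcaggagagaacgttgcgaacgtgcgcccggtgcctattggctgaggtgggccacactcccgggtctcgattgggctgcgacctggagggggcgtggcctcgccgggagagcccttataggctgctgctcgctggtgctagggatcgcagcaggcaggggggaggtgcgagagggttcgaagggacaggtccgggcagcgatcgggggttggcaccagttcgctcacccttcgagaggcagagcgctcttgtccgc
A match is a description of the letters in the window and not of a bound site.

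The libraries held 28951250 to 43997537 read pairs on genes, and 23.7% to 28.2% of these were mitochondrial. Levels are given as CPM, the read pairs of a gene relative to its library's total after TMM scaling, and are listed in the order of replicates 1, 2 and 3. The targeted gene, Snhg11, had 551, 436 and 209 CPM in Control-ASO and 139, 65.4 and 69.4 CPM in Snhg11-ASO, with no overlap between the groups (log2 fold change -2.13, SE 0.43, unadjusted p = 0.00172, adjusted p = 0.395, and -2.56 without replicate 1 of Snhg11-ASO). Throughout, p-values are those of the quasi-likelihood test of edgeR unless another test is named, and adjusted values were corrected over all tested genes after Benjamini and Hochberg. The library of Snhg11-ASO replicate 1 stood apart: its Spearman correlation across genes with the other 5 libraries was 0.955 to 0.959, whereas all other pairs of libraries had 0.979 to 0.991. The log2 fold changes of the glucocorticoid genes and the medians of the pathway lists are therefore given with and without it. The markers of dentate granule cells, 8 genes, summed to 473 to 608 CPM and those of pyramidal cells, 8 genes, to 362 to 476 CPM, with none at 0 in any sample.

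Several glucocorticoid targets were counted far higher in Snhg11-ASO replicate 1 than in any other sample, and close to the Control-ASO levels in Snhg11-ASO replicates 2 and 3. In replicate 1, 5 of the 8 targets (Fkbp5, Sgk1, Ddit4, Pdk4 and Errfi1) stood at least 2-fold above the mean of the Control-ASO samples, where 7.97% of all tested genes did so in that library. In Snhg11-ASO replicates 2 and 3, 0 of the 8 did, against 2.07% and 1.44% of all tested genes. In 6 of the 8 targets Snhg11-ASO replicate 1 was the highest of the 6 samples, as it was for 33.3% of all tested genes. These are values of 1 library and have no replicate check. Between the groups, 0 of the 10 genes passed an adjusted p of 0.05 in edgeR, as 0% of all tested genes did, and 0 of the 10 had an unadjusted p under 0.05, against 8.11% of all tested genes. The groups overlapped for all 10 genes, while for 15.4% of all tested genes they did not overlap.

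**Figure D1:**
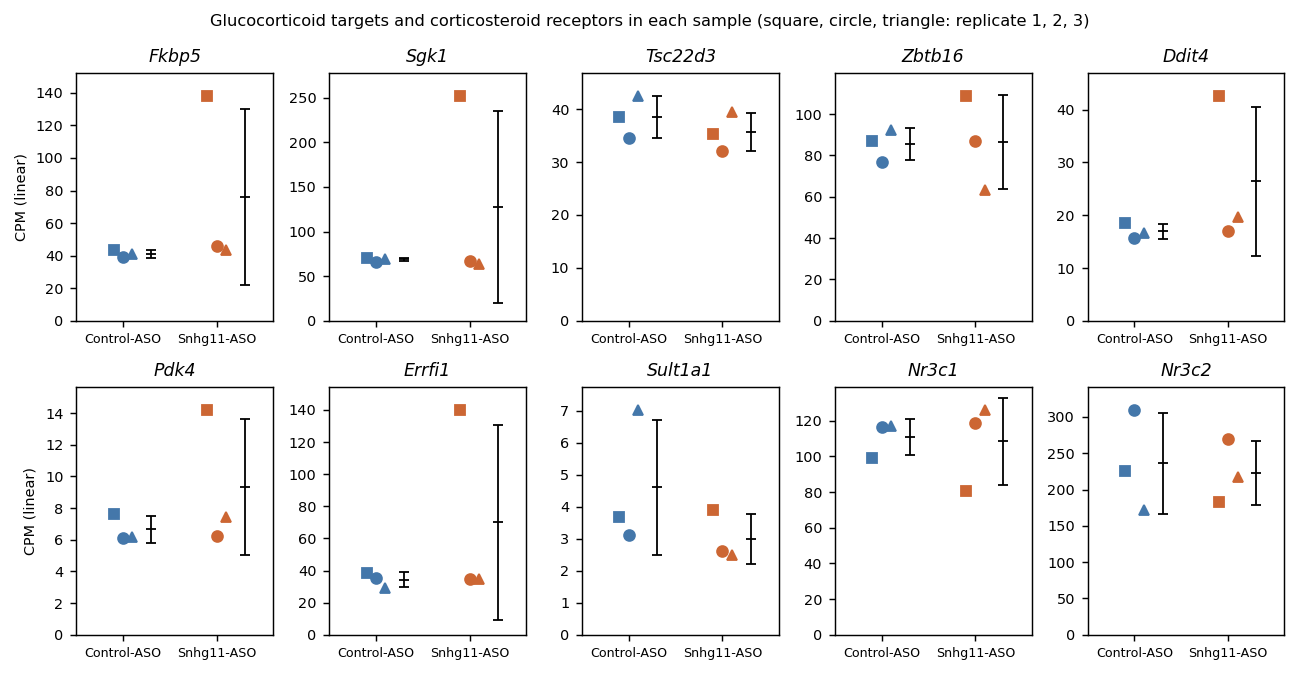
CPM of each of the 10 genes (vertical axis, linear, from 0) in the 3 Control-ASO and 3 Snhg11-ASO samples, with squares, circles and triangles for replicates 1, 2 and 3, and the mean with its SD to the right of each group. The square of Snhg11-ASO stands above all other samples in Fkbp5 (138 CPM), Sgk1 (252 CPM), Ddit4 (42.6 CPM), Pdk4 (14.2 CPM), Errfi1 (140 CPM) and, less so, Zbtb16 (109 CPM), and below them in Nr3c1 (80.6 CPM).

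Fkbp5 (chr17:28399094-28517527, minus strand) encodes a co-chaperone of Hsp90 that lowers the hormone affinity of the glucocorticoid receptor and is itself induced by it. Its levels were 43.4, 38.9 and 40.9 CPM in Control-ASO and 138, 45.9 and 43.4 CPM in Snhg11-ASO replicates 1, 2 and 3. Snhg11-ASO replicate 1 was thus at 3.37-fold of the Control-ASO mean, replicate 2 lay just above the Control-ASO range and replicate 3 at its upper end. Between the groups the log2 fold change was 0.88 (SE 0.44, edgeR unadjusted p = 0.0845, adjusted p = 0.661), and an exact two-sided permutation test on log2 CPM gave p = 0.2, where 3 against 3 cannot go below 0.1. Without Snhg11-ASO replicate 1 the log2 fold change was 0.12 (95% interval -0.07 to 0.32). In DESeq2 its unadjusted p was 0.0355 and its adjusted p 0.426.

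Sgk1 (chr10:21882184-21999903, plus strand) encodes a serum- and glucocorticoid-regulated kinase that acts on ion channels and transporters. Its levels were 70.6, 66.4 and 69.0 CPM in Control-ASO and 252, 67.5 and 64.1 CPM in Snhg11-ASO. The Control-ASO samples and Snhg11-ASO replicates 2 and 3 all lay within 64.1 to 70.6 CPM, so that the group difference rested on replicate 1 alone, at 3.67-fold of the Control-ASO mean. Over all samples the log2 fold change was 0.90 (SE 0.52, edgeR adjusted p = 0.694) and -0.06 without that sample (95% interval -0.23 to 0.11).

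Errfi1 (chr4:150853919-150868892, plus strand), which encodes an inhibitor of the epidermal growth factor receptor, was also highest in that library. It had 38.4, 35.2 and 29.4 CPM in Control-ASO and 140, 35.0 and 34.8 CPM in Snhg11-ASO. Snhg11-ASO replicate 1 reached 4.08-fold of the Control-ASO mean, a fold met or exceeded in that library by 2.09% of all tested genes. Snhg11-ASO replicates 2 and 3 lay inside the Control-ASO range. With all samples Errfi1 had a log2 fold change of 1.03 (SE 0.55, edgeR adjusted p = 0.680), and 0.02 without replicate 1 (95% interval -0.26 to 0.31). DESeq2 gave an unadjusted p of 0.0397 and an adjusted p of 0.450.

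Ddit4 (chr10:59949669-59951834, minus strand) encodes an inhibitor of mTORC1 signalling. It was counted at 18.5, 15.8 and 16.6 CPM in Control-ASO and at 42.6, 17.1 and 19.6 CPM in Snhg11-ASO. Replicate 1 of Snhg11-ASO was at 2.51-fold of the Control-ASO mean, replicate 2 lay within the Control-ASO range and replicate 3 just above it. For Ddit4 the log2 fold change was 0.64 (SE 0.34, edgeR adjusted p = 0.680), and 0.11 without replicate 1 (95% interval -0.16 to 0.39).

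Pdk4 (chr6:5483351-5496309, minus strand) encodes a kinase that inhibits the pyruvate dehydrogenase complex. Its levels were low, at 7.65, 6.12 and 6.20 CPM in Control-ASO and 14.2, 6.25 and 7.47 CPM in Snhg11-ASO, from 206 to 542 read pairs per library. Only replicate 1 of Snhg11-ASO, at 2.13-fold of the Control-ASO mean, lay outside the Control-ASO range. Pdk4 had a log2 fold change of 0.48 (SE 0.32, edgeR adjusted p = 0.732), and 0.04 without that sample (95% interval -0.35 to 0.44).

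Tsc22d3, Zbtb16 and Sult1a1 were less than 2-fold above the Control-ASO mean in Snhg11-ASO replicate 1. Tsc22d3 (chrX:140539528-140600659, minus strand), which encodes the glucocorticoid-induced leucine zipper protein, had 38.6, 34.5 and 42.5 CPM in Control-ASO and 35.4, 32.2 and 39.5 CPM in Snhg11-ASO. Its level in Snhg11-ASO replicate 1 was inside the Control-ASO range, at 0.917-fold of the mean, and 57.4% of all tested genes stood as high or higher in that library. Between groups Tsc22d3 had a log2 fold change of -0.11 (SE 0.12, 95% interval -0.41 to 0.18, edgeR adjusted p = 0.836), and -0.10 without replicate 1.

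Zbtb16 (chr9:48654297-48836222, minus strand) encodes a zinc finger transcription factor. It had 87.2, 76.9 and 92.1 CPM in Control-ASO and 109, 86.9 and 63.5 CPM in Snhg11-ASO. The Snhg11-ASO samples held both the highest and the lowest value, replicate 1 at 1.27-fold of the Control-ASO mean and replicate 3 at 0.744-fold. Its log2 fold change was 0.02 (SE 0.19, 95% interval -0.44 to 0.47, edgeR adjusted p = 0.987), and -0.18 without replicate 1 (95% interval -0.54 to 0.17).

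Sult1a1 (chr7:126672865-126676432, minus strand), which encodes a phenol sulfotransferase, had 105 to 237 read pairs per library. Its levels were 3.67, 3.12 and 7.04 CPM in Control-ASO and 3.91, 2.61 and 2.496 CPM in Snhg11-ASO. Snhg11-ASO replicate 1 lay inside the Control-ASO range, and replicates 2 and 3 below it. The log2 fold change was -0.62 (SE 0.36, edgeR adjusted p = 0.700), -0.85 without Snhg11-ASO replicate 1 (95% interval -1.75 to 0.04) and -0.18 without Control-ASO replicate 3, the highest sample. An exon of Sgf29 overlaps it on the opposite strand, on which 48 to 134 read pairs per library were counted at Sult1a1, and with the pairs of both strands together the log2 fold change was -0.34.

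The receptors themselves were not higher in Snhg11-ASO replicate 1. Nr3c1 (chromosome 18, 39410545 to 39519421, minus strand) had 99.2, 116 and 117 CPM in Control-ASO and 80.6, 119 and 126 CPM in Snhg11-ASO. Replicate 1 was the lowest of the 6 samples, and replicates 2 and 3 were the highest. For Nr3c1 the log2 fold change was -0.03 (SE 0.18, 95% interval -0.45 to 0.39, edgeR adjusted p = 0.974), and 0.15 without replicate 1 (95% interval -0.09 to 0.38).

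Nr3c2 (chr8:76899442-77245012, plus strand) had 226, 310 and 172 CPM in Control-ASO and 183, 269 and 217 CPM in Snhg11-ASO. Its Control-ASO samples spread over a wider range than the Snhg11-ASO samples and enclosed them. Its log2 fold change was -0.08 (SE 0.23, 95% interval -0.64 to 0.47, edgeR adjusted p = 0.941), and 0.04 without Snhg11-ASO replicate 1 (95% interval -0.53 to 0.62). The receptors were covered by 2918 to 11250 read pairs per library.

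Per kb of merged exons, the Control-ASO levels ran from Nr3c2 (36.4 ± 10.7 CPM per kb, SD, n = 3) through Zbtb16 (16.2 ± 1.47), Nr3c1 (14.4 ± 1.31), Sgk1 (14.0 ± 0.432), Ddit4 (9.66 ± 0.810), Errfi1 (9.59 ± 1.27), Tsc22d3 (8.88 ± 0.928), Fkbp5 (4.34 ± 0.238) and Sult1a1 (3.06 ± 1.41) to Pdk4 (1.90 ± 0.244). The ranges of the 3 samples did not overlap between Nr3c2 and Zbtb16, between Sgk1 and Ddit4 or between Tsc22d3 and Fkbp5, and overlapped between all other neighbours in that order. Nr3c2 was thus the most highly expressed of the 10 genes in the Control-ASO samples on this scale.

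Over the 8 targets, 6 had a fitted log2 fold change above 0 and 2 below, with a median of 0.56, beside a median of 0.01 over all tested genes. When Snhg11-ASO replicate 1 was left out, this median was -0.02. Replicate 1 of both groups follows another naming pattern in the deposited data than replicates 2 and 3, and what this pattern marks is not given in the sources used here. Within the set of replicates 2 and 3 (n = 2 per group) the median was 0.03, and the log2 fold changes were 0.16 in Fkbp5, -0.04 in Sgk1, 0.11 in Errfi1, 0.18 in Ddit4 and 0.15 in Pdk4. Within the set of replicate 1, with 1 sample per group and no test, the log2 differences were 1.67 in Fkbp5, 1.83 in Sgk1, 1.87 in Errfi1, 1.20 in Ddit4 and 0.89 in Pdk4. Control-ASO replicate 1, which shares the naming pattern, was at 0.796-fold to 1.15-fold of the Control-ASO mean in the 8 targets. Once replicate 1 of Snhg11-ASO was left out, the groups did not overlap for 3 of the 10 genes (Fkbp5, Sult1a1 and Nr3c1), against 28.3% of all genes tested without it.

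**Figure D2:**
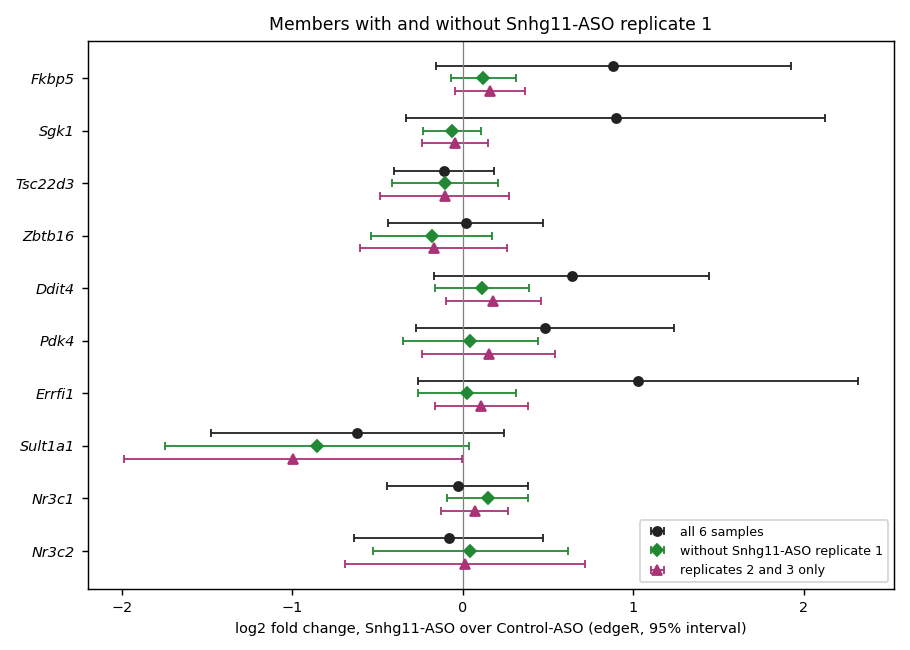
Log2 fold change of Snhg11-ASO over Control-ASO (horizontal axis, edgeR, bars are 95% intervals) for each of the 10 genes, with all 6 samples (circles), without Snhg11-ASO replicate 1 (diamonds) and in replicates 2 and 3 only (triangles). In Fkbp5, Sgk1 and Errfi1 the estimate moves from 0.88, 0.90 and 1.03 with all samples to 0.12, -0.06 and 0.02 without that replicate, and the intervals become narrower.

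A further list of 24 genes that glucocorticoids are known to induce was read in the same way, and here too most genes were highest in Snhg11-ASO replicate 1. In that library 17 of the 24 stood at least 2-fold above the Control-ASO mean (7.97% of all tested genes) and 20 of the 24 were the highest of the 6 samples (33.3% of all tested genes), whereas 1 of the 24 was at least 2-fold above in replicate 2 (2.07%) and 1 in replicate 3 (1.44%). The summed level was 930, 1100.3 and 1143 CPM in Control-ASO and 2705, 1061 and 1148 CPM in Snhg11-ASO, so the sums of Snhg11-ASO replicates 2 and 3 lay inside and just above the Control-ASO range. With all samples 21 of the 24 were higher and 3 lower, with a median log2 fold change of 0.98, 0 past the adjusted threshold, 5 at an unadjusted p under 0.05 (8.11% of all tested genes) and 6 without overlap between groups (15.4%). Leaving out Snhg11-ASO replicate 1 brought the median to -0.01, and 4 of the 24 had an unadjusted p under 0.05, as did 9.94% of all genes tested without it. Many genes of this list are also induced by cytokines, injury or DNA damage.

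The 5 genes at an unadjusted p under 0.05 were Mt1, Mt2, Cdkn1a, Gadd45g and Cebpd. Mt2, a metallothionein that binds zinc, had 44.1, 69.5 and 66.4 CPM in Control-ASO and 335, 90.1 and 105.5 CPM in Snhg11-ASO, so all Snhg11-ASO samples were above all Control-ASO samples (log2 fold change 1.56, SE 0.51, edgeR adjusted p = 0.544). Mt1, its neighbour and paralog, had 105.3, 155 and 154 CPM against 602, 171 and 197 CPM (log2 fold change 1.23, SE 0.48, edgeR adjusted p = 0.591). Cdkn1a, a cell cycle inhibitor that p53 also induces, had 4.66, 3.72 and 4.90 CPM against 62.6, 9.60 and 12.4 CPM (log2 fold change 2.67, SE 0.73, edgeR adjusted p = 0.494). For these 3 genes each of the 3 Snhg11-ASO samples lay above the Control-ASO range, and replicate 1 was the highest.

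Gadd45g, a stress-inducible gene, had 6.19, 7.40 and 8.22 CPM in Control-ASO and 16.9, 10.1 and 10.4 CPM in Snhg11-ASO (log2 fold change 0.78, SE 0.24, edgeR adjusted p = 0.532). Cebpd, a transcription factor of the acute phase response, had 9.04, 15.1 and 8.70 CPM in Control-ASO and 38.0, 15.0 and 18.6 CPM in Snhg11-ASO, and its groups overlapped (log2 fold change 1.12, SE 0.39, edgeR adjusted p = 0.556). Without Snhg11-ASO replicate 1 the log2 fold changes were 0.70 in Mt2, 0.41 in Mt1, 1.31 in Cdkn1a, 0.49 in Gadd45g and 0.62 in Cebpd. These 5 genes thus kept a positive difference without that library, while their adjusted p from edgeR was 0.173 to 0.512. In DESeq2 none of the 5 was called with all samples, whereas without Snhg11-ASO replicate 1 Cdkn1a (adjusted p = 4.7e-06) and Mt2 (adjusted p = 0.038) were, and both were also called without replicate 2 or replicate 3.

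**Figure D3:**
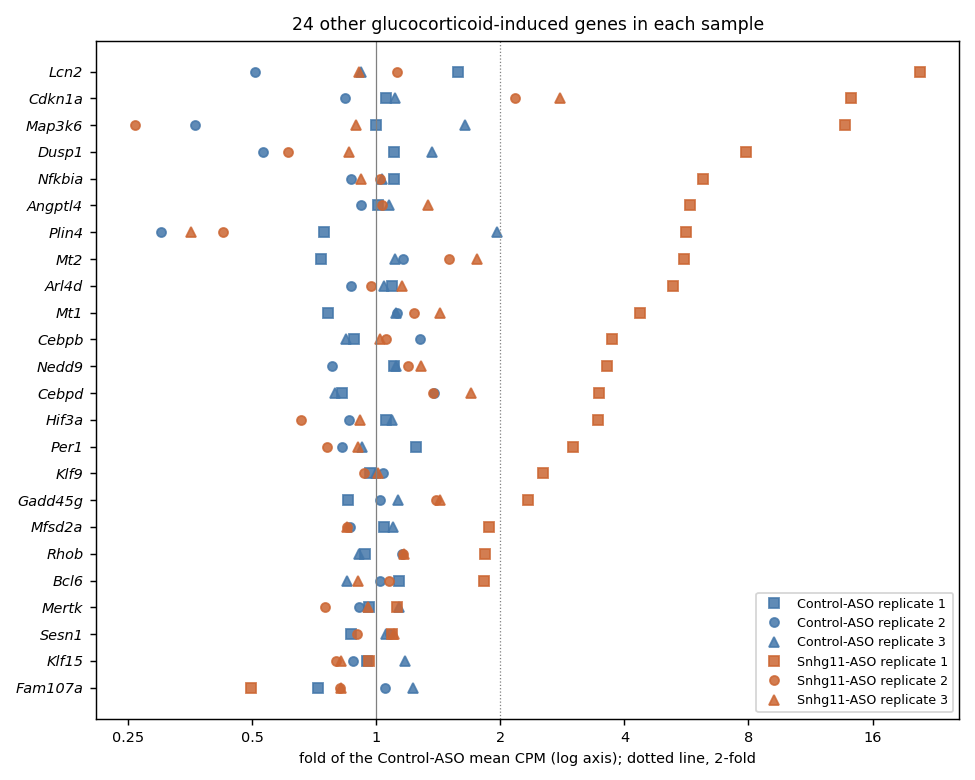
Level of each of the 24 other glucocorticoid-induced genes as fold of the Control-ASO mean CPM (horizontal axis, log scale, dotted line at 2-fold), in the 3 Control-ASO (blue) and 3 Snhg11-ASO samples (orange), with squares, circles and triangles for replicates 1, 2 and 3. The orange squares of 17 genes lie at or right of the dotted line, as do 1 orange circle and 1 orange triangle, both of Cdkn1a.

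No gene that acts on the receptor or supplies its hormone passed the adjusted threshold, and 0% of all tested genes did. Of the 11 receptor chaperones, 3 were higher and 8 lower, with a median log2 fold change of -0.08 (0.00 without Snhg11-ASO replicate 1). Of these 11, 0 had an unadjusted p under 0.05, against 8.11% of all tested genes. The smallest p among them was that of Ptges3, the p23 co-chaperone, with 44.1, 46.5 and 42.1 CPM in Control-ASO and 53.4, 48.6 and 46.4 CPM in Snhg11-ASO (log2 fold change 0.16, SE 0.10, edgeR unadjusted p = 0.137, adjusted p = 0.704, and 0.10 without replicate 1). Of the 10 receptor coregulators, 7 were higher and 3 lower, with a median of 0.10 and 0 past the threshold. In Snhg11-ASO replicate 1, 8 of the 10 were the highest of the 6 samples, as were 33.3% of all tested genes. Without that library their median turned to -0.07. Nrip1, a corepressor of nuclear receptors, had their smallest p, with 79.1, 86.6 and 75.3 CPM against 118, 87.4 and 79.7 CPM (log2 fold change 0.24, SE 0.16, edgeR unadjusted p = 0.164, adjusted p = 0.727, and 0.06 without replicate 1).

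Of 8 genes for steroid supply and metabolism, 6 could be tested, 3 of which were higher and 3 lower. Their median log2 fold change was 0.01 (0.02 without Snhg11-ASO replicate 1). Of these 6, 0 passed the threshold (0% of all tested genes) and 0 had an unadjusted p under 0.05 (8.11% of all tested genes). Abcb1b, an efflux transporter, had the smallest p of these, with 5.78, 6.72 and 7.66 CPM in Control-ASO and 13.2, 7.03 and 7.51 CPM in Snhg11-ASO (log2 fold change 0.46, SE 0.28, edgeR unadjusted p = 0.139, adjusted p = 0.707, and 0.11 without replicate 1). Of 7 genes of the corticotropin-releasing hormone system, 4 could be tested, with a median of -0.42 (-0.35 without Snhg11-ASO replicate 1). Crhr2, a receptor of this system, had 2.41, 1.07 and 1.66 CPM in Control-ASO and 0.813, 0.909 and 0.962 CPM in Snhg11-ASO, with no overlap (log2 fold change -0.93, SE 0.34, edgeR unadjusted p = 0.0301, adjusted p = 0.574, and -0.87 without replicate 1). The groups overlapped for the other 3 tested genes of that system, while for 15.4% of all tested genes they did not overlap.

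Immediate early genes, which neurons induce within minutes of activity and which handling or stress before death can also move, were higher in all 10 cases, with a median log2 fold change of 0.77, 0 past the adjusted threshold, 4 at an unadjusted p under 0.05 (8.11% of all tested genes) and 5 without overlap (15.4%). In contrast to the glucocorticoid targets, their median stayed above 0 without Snhg11-ASO replicate 1, at 0.39. The difference between the lists in this respect was not tested. Fos had 8.91, 8.68 and 8.22 CPM in Control-ASO and 45.9, 16.2 and 21.9 CPM in Snhg11-ASO (log2 fold change 1.70, SE 0.37, edgeR unadjusted p = 0.0026, adjusted p = 0.428, and 1.15 without replicate 1), and DESeq2 called it (adjusted p = 0.00112). Arc, an activity-induced synaptic gene, had 83.0, 51.4 and 84.4 CPM against 99.2, 115 and 144 CPM (log2 fold change 0.71, SE 0.22, edgeR adjusted p = 0.532, and 0.83 without replicate 1), and here replicate 1 was the lowest of the Snhg11-ASO samples.

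The other 2 genes of this kind at an unadjusted p under 0.05 were Egr1 and Junb, both transcription factors. Egr1 had 35.9, 34.5 and 33.7 CPM in Control-ASO and 65.2, 42.9 and 45.7 CPM in Snhg11-ASO (log2 fold change 0.56, SE 0.17, edgeR adjusted p = 0.527, and 0.35 without replicate 1). Junb had 31.2, 22.8 and 28.0 CPM against 71.7, 32.6 and 40.8 CPM (log2 fold change 0.82, SE 0.29, edgeR adjusted p = 0.562, and 0.43 without replicate 1). In all 4 genes every Snhg11-ASO sample lay above every Control-ASO sample.

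**Figure D4:**
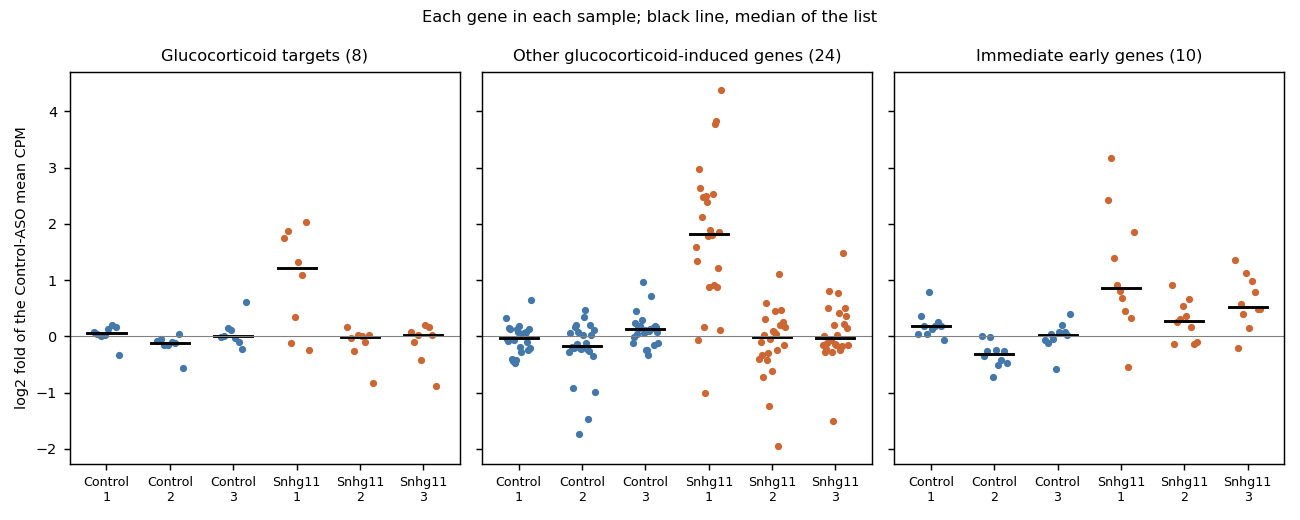
Log2 fold of the Control-ASO mean CPM (vertical axis) for each gene of 3 lists in each of the 6 samples, with the median of the list as a black line. The medians of the 8 targets and of the 24 other glucocorticoid-induced genes stand apart from 0 in Snhg11-ASO replicate 1, and those of the 10 immediate early genes lie above 0 in all 3 Snhg11-ASO samples and in Control-ASO replicates 1 and 3, where they are closer to 0.

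Cell type markers moved with the same library, and in bulk tissue fewer cells of a type and less RNA per cell cannot be told apart. In Snhg11-ASO replicate 1, the 9 microglial markers summed to 184 CPM, against 301 to 593 CPM in the other 5 samples, and 8 of the 9 were at their lowest there, where 32.5% of all tested genes were. The 10 astrocyte markers summed to 3366 CPM, against 4513 to 5206 CPM, with 7 of the 10 at their lowest. The 10 oligodendrocyte markers summed to 1700 CPM, near the lowest other sample (1656 CPM), with 8 of the 10 at their lowest in that library. The 10 endothelial markers summed to 198 CPM, within the 171 to 206 CPM of the others, with 6 of the 10 highest and 4 of the 10 lowest in it. Neuronal sums in that library were 362 CPM for the 8 pyramidal markers (387 to 476 CPM in the other samples). They were 450 CPM for the 8 interneuron markers (492 to 570 CPM in the others) and 494 CPM for the granule cell markers, inside their range. In both the pyramidal and the interneuron list 2 of the 8 were at their lowest there, against 32.5% of all tested genes. Of the 8 granule cell markers, 4 were at their lowest in that library. No marker of these lists was at 0 in any sample, and their part in the levels of the glucocorticoid targets was not tested.

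The 10 reactive astrocyte markers, several of which glucocorticoids and cytokines also induce, were higher in Snhg11-ASO in 10 of 10 cases, 8 of them at an unadjusted p under 0.05 (8.11% of all tested genes), with 0 past the adjusted threshold in edgeR. DESeq2 called 3 of the 10 (Serpina3n, Osmr and S1pr3, with 1.29% of all tested genes called). They summed to 615, 2408 and 1713 CPM in Control-ASO and to 2051, 2960 and 3192 CPM in Snhg11-ASO. Their median log2 fold change was 1.34, and 1.01 without replicate 1, and the groups did not overlap for 7 of the 10 (15.4% of all tested genes). The sum of replicate 1 lay inside the Control-ASO range, with Gfap, the most abundant of them, at 0.749-fold of the Control-ASO mean there. In that library, however, 8 of the 10 stood at least 2-fold above the Control-ASO mean (7.97% of all tested genes). There 7 of the 10 were the highest of the 6 samples (33.3% of all tested genes). Choroid plexus markers, 12 genes, summed to 2005, 42.1 and 1305 CPM in Control-ASO and to 1363, 138 and 76.4 CPM in Snhg11-ASO. The Snhg11-ASO sums thus lay inside the wide Control-ASO range. The median log2 fold change of these 12 genes was -0.93, and -2.67 without Snhg11-ASO replicate 1. For the 10 oligodendrocyte markers it was 0.29, and 0.61 without that library. The groups thus also differed in these markers in the fit without it, and the bearing on the glucocorticoid genes was not tested.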

How the data were processed

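RNA from the dorsal hippocampus of 3 Control-ASO and 3 Snhg11-ASO mice was ribo-depleted and sequenced in pairs. The authors aligned the reads to mm10 (GRCm38) with STAR 2.5.2a, and the deposited values are raw counts of read pairs, given per gene and sample, neither normalized nor pooled. The study's text names Rsubread for counting, whereas the deposited tables have the layout of STAR's own counts. STAR drops pairs that map to several places or genes. The study removed 1 Snhg11-ASO sample that it does not name, so all 6 were kept here.

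Reverse-strand counts were used, since 96.2% to 96.8% of stranded pairs lay there. Lines that name no gene held 43.5% to 51.4% of pairs and were left out. Names and positions came from GENCODE M21, which matched 55141 of 55401 identifiers. Genes were filtered with filterByExpr (minimum count 10), scaled with TMM factors (0.982 to 1.02) and tested with edgeR 4.0.16 (quasi-likelihood, Benjamini-Hochberg adjustment over 19969 genes, threshold 0.05) in R 4.3.3. Log2 CPM used a prior count of 2. Alternatives used DESeq2 1.42.0, other scalings, both strands, other filters, offsets for genomic span, the replicate block and the omission of each sample. Those added after the data were seen were limma-voom 3.58.1 with sample weights, robust edgeR, the naming set as a term, and replicates 2 and 3 only. The tests were checked on simulated counts, drawn with a common dispersion for all genes and no library that stands apart. That check therefore cannot show how the tests behave with a library such as Snhg11-ASO replicate 1.

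The reported fit had no replicate block. The replicate numbers were taken to pair the samples for the fit with the block, because samples with the same number deviated together: once each group's mean was taken off, they correlated at 0.297, 0.179 and 0.103, each over 0.1. Samples with different numbers were not compared in this way, so these correlations cannot show that equal numbers mark pairs. The labels do not say what a number shares. The genes and lists were chosen with earlier results of these data known. Named were the 10 genes, Snhg11 and, from each pathway list, every gene at an unadjusted p under 0.05 or, where there was none, the gene with the smallest p. Other names were chosen after their values were seen. Promoter windows came from RefSeq (GRCm38.p6) and were read by exact letter matching.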

Additional observations from a re-analysis of the deposited data

How the results depend on the processing

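None of the 10 genes passed an adjusted p of 0.05 under any of the 22 alternatives. With the replicate block 0 of the 10 passed and the median log2 fold change of the 8 targets was 0.46 (0.44 with span offsets as well), and the block changed no call, while the log2 fold change was 0.66 in Fkbp5, 0.57 in Sgk1 and 0.69 in Errfi1. Omitting each sample in turn moved that median between -0.0181 and 0.79, with the low value without Snhg11-ASO replicate 1, and the same omission in DESeq2 gave -0.0218. The log2 fold change changed sign in 4 of the 10 genes. In Zbtb16 it was -0.00884 with upper-quartile factors, -0.0116 with the replicate block, -0.17 with limma-voom weights, -0.00543 with the naming set as a term, -0.17 in replicates 2 and 3 only, -0.18 to 0.20 with each sample omitted and -0.19 in DESeq2 without Snhg11-ASO replicate 1. In Nr3c1 it was 0.00294 with span offsets, 0.11 with weights, 0.0693 in replicates 2 and 3, -0.15 to 0.15 with each sample omitted and 0.14 in DESeq2 without replicate 1. In Nr3c2 it was 0.0734 with span offsets, 0.10 with span offsets and the block, 0.11 with weights, 0.0106 in replicates 2 and 3, -0.27 to 0.16 with each sample omitted and 0.0411 in DESeq2 without replicate 1. In Sgk1 it was -0.0432 in replicates 2 and 3, -0.0611 to 1.22 with each sample omitted and -0.0647 in DESeq2 without replicate 1. Between 1 and 3 of the 10 genes had groups without overlap when a sample was omitted, and 1 (Fkbp5) with DESeq2's size factors or with both strands, beside 0 with all samples. Of all tested genes, 15.4% had groups without overlap with all samples and 28.3% without Snhg11-ASO replicate 1. The share over all genes was not read for the other settings.

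Over all genes edgeR called 0, with 1619 at an unadjusted p under 0.05, and 0 to 2 with each sample omitted. DESeq2 called 258, and 347, 275 and 223 without Snhg11-ASO replicates 1, 2 and 3. Sample weights gave 7 and the naming set as a term 1. Of the pathway lists DESeq2 called 1 gene, Fos, and 5, 6 and 3 genes without Snhg11-ASO replicates 1, 2 and 3, Fos, Cdkn1a and Mt2 each time, against 0 in edgeR. The cause of these differences was not tested. With 3 samples per group and 1 library that stood apart, the 95% intervals with all samples span over 2 log2 units in Fkbp5, Sgk1 and Errfi1.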

Other observations

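The following genes were chosen after their values were seen. Ucn2, a urocortin of the corticotropin-releasing hormone family, was too low to be tested, with 2, 3 and 0 read pairs in Control-ASO and 27, 4 and 4 read pairs in Snhg11-ASO. Its relative Ucn had 0, 1 and 0 read pairs in Control-ASO and 8, 0 and 0 read pairs in Snhg11-ASO. Both were thus counted mainly in the library in which the glucocorticoid targets were high, from few read pairs.

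Among the 24 other glucocorticoid-induced genes, Lcn2, a secreted lipocalin of the acute phase response, had 10.2, 3.27 and 5.94 CPM in Control-ASO and 135, 7.23 and 5.84 CPM in Snhg11-ASO. Klf9, a transcription factor that corticosterone induces in the hippocampus, had 170, 183 and 176 CPM in Control-ASO and 448, 164 and 178 CPM in Snhg11-ASO. Fam107a, a gene expressed in astrocytes that glucocorticoids induce, went the other way, with 186, 272 and 317 CPM in Control-ASO and 128, 210 and 212 CPM in Snhg11-ASO, lowest in replicate 1. The clock gene Per1 had 43.5, 28.7 and 32.2 CPM in Control-ASO and 104, 26.4 and 31.4 CPM in Snhg11-ASO. None of these 4 genes had an unadjusted p under 0.05 in edgeR. Both Fam107a and the summed astrocyte markers were at their lowest in Snhg11-ASO replicate 1, where 32.5% of all tested genes were. A link between them was not tested.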
